A study of Mus musculus with 29 samples.

Results

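The genes described here are 36 type I interferon-stimulated genes, listed by name as familiar targets of interferon-alpha and interferon-beta. The rule uses no measured value, but the list was drawn up with earlier results of these data known. They were found among the 21938 protein-coding genes of the GENCODE annotation of the mouse genome build GRCm38, with the exception of Mx2, which is annotated there as a polymorphic pseudogene. Because some are neighbours, the 36 genes occupy 31 separate windows: Ifit2 with Ifit3, Parp9 with Dtx3l, Oasl1 with Oasl2, Oas2 with Oas3, and Rsad2 with Cmpk2 share regions. The study mapped chromatin proteins by CUT&RUN, in which an antibody tethers micrococcal nuclease to a protein and the DNA cut free around it is sequenced. Female mice of the IRF8-EGFP strain served for IRF8 itself, a transcription factor targeted with a GFP antibody (Abcam, ab290). It was mapped in sorted microglia of 3 ages, with 4 libraries at P9, 3 at P14 and 3 in adults, and 3 libraries came from macrophages of the peritoneum. Adult female wild-type (WT) and IRF8KO microglia each gave 2 libraries for the transcription factor PU.1, 2 for H3K27ac and 2 for H3K4me1, which are histone marks. The labels give an age of 3 months in a protocol shared by every sample, P9 and P14 included, and the titles were followed for these 2 stages. The labels call every one of these cells microglia in the source field, peritoneal macrophages included, and the titles were followed. The labels do not say whether libraries of a group came from separate animals, and they name neither the design of the knockout allele nor any interferon treatment.

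Type I interferons act through a receptor on the cell surface that activates STAT2, a transcription factor. Complexes of STAT2 with IRF9 bind the interferon-stimulated response element, a repeat of the GAAA core, in the promoters of target genes. IRF8 belongs to the same family as IRF9 and binds DNA weakly by itself. It reaches such repeats with partners of its family, and reaches composite elements, in which an ETS core stands next to a GAAA core, together with PU.1. In microglia, the macrophages of the brain, interferon-stimulated genes are kept low at rest and rise in infection, ageing and neurodegeneration.

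The promoter stretches that carry the comparison of sequence with binding are shown first, as stored in the RefSeq promoter table (GRCm38.p6). Each is printed 5′ to 3′ on the strand of its gene and stops at or just before the transcription start, and bases in annotated exons were left out. Capitals mark the interferon-response-like motif GAAANNGAAA, on either strand, with overlapping copies run together. Bst2, Ifi35, Trim30a and Ifit3 come from the 8 genes with the highest-ranking adult IRF8 promoter regions. The rest of the 8 had no entry in that table (Dhx58 and Parp9) or no stretch outside exons under that region. Isg15, Ifit1, Oas3 and Rsad2 were added after their values had been seen, because they hold the motif and had no adult IRF8 region at it.
Bst2 (chr8:71537473-71537642, minus strand): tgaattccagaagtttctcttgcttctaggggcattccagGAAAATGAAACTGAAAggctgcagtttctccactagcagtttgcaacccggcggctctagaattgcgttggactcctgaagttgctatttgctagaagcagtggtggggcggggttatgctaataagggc
Ifi35 (chr11:101448242-101448406, plus strand): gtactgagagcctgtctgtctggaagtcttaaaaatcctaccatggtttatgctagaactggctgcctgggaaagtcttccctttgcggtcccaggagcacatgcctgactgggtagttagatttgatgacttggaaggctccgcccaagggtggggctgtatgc
Trim30a (chr7:104465194-104465363, minus strand): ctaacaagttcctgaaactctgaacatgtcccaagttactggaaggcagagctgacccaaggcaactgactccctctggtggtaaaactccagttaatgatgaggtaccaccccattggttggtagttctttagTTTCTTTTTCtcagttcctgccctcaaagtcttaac
Ifit3 (chr19:34583359-34583528, plus strand): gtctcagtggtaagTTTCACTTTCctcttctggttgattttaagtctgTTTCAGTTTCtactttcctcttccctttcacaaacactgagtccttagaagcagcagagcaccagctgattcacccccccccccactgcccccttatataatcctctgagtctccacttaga
Isg15 (chr4:156200819-156200988, minus strand): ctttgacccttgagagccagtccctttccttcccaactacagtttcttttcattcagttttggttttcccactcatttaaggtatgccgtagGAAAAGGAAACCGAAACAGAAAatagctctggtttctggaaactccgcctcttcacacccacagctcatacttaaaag
Ifit1 (chr19:34640744-34640870, plus strand): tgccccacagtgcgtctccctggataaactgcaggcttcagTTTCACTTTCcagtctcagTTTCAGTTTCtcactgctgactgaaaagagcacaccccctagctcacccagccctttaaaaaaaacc
Oas3 (chr5:120777662-120777795, minus strand): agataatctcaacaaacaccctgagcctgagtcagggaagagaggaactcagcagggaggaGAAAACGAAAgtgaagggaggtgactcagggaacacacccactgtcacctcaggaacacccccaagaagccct
Rsad2 (chr12:26456453-26456622, minus strand): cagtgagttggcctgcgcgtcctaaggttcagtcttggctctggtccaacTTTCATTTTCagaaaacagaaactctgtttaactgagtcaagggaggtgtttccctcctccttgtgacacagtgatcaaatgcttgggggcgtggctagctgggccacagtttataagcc

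The only IRF8 regions at these genes that recurred at P9 are shown next, 100 bases each around the same motif on the plus strand of GRCm38. None of the 3 stretches lies in an annotated exon.
Ifit3 (P9 region, chr19:34599396-34599495, plus strand): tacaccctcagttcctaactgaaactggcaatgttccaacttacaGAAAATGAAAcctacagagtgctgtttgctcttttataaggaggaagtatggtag
Ifit3 (P9 region, chr19:34602018-34602117, plus strand): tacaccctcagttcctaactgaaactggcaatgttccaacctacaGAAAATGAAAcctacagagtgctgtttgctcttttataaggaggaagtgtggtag
Ifitm3 (P9 region, chr7:140999037-140999136, plus strand): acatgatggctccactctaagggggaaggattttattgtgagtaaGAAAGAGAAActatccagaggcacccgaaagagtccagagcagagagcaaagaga
The first and second stretch are identical at 98 of 100 bases. Their regions are centred 15868 and 18449 bp downstream of the Ifit3 start, and 72 and 24 bp from starts of its neighbour Ifit1bl1. The sources used here do not say how reads matching both copies were placed, so the pair is uncertain as separate sites. The third lies 11607 bp downstream of the start of Ifitm3, which encodes a membrane protein that blocks virus entry. The peaks with the lowest p in the Ifit3 window were enriched 7.72, 3.93 and 4.83-fold in P9 replicates 1, 2 and 3, and those in the Ifitm3 window 3.89, 5.88 and 4.83-fold in P9 replicates 1, 3 and 4.

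The 13 IRF8 libraries held 7.25 to 24.7 M fragments and 1399 to 52243 listed peaks, with 1399 to 2490 at P9, 9552 to 25481 at P14, 23881 to 52243 in adults and 10244 to 32510 in macrophages. The P9 libraries with these short lists held 13.4 to 20.9 M fragments, and the adult libraries 7.25 to 24.7 M. Each stage or tissue was called against a different IgG control, so stage, tissue and control cannot be told apart. The shallowest library of the genotype comparison was IRF8KO H3K27ac replicate 2, with 8.57 M fragments. The labelled cell types were checked by marker genes. Adult microglia had a recurrent IRF8 region near 6 of 6 microglial markers and 1 of 4 peritoneal macrophage markers, and peritoneal macrophages near 4 of 6 and 4 of 4. Regions also lay, in both, near 3 of 3 B cell, 2 of 3 oligodendrocyte, 1 of 3 neuron, 1 of 3 astrocyte and 0 of 2 T cell markers, where the shares of all genes were 50.6% and 39.9%. Of these 14 markers 1, of oligodendrocytes, had a region at its promoter in each. Their part in the results was not tested.

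IRF8 regions were scarce at P9, at the interferon-stimulated genes as at all genes, and common in adults. A region was counted as recurrent when at least 2 libraries of the group had a peak there, and a gene was counted when such a region touched its body or the 20 kb on either side. By that count 2 of 36 genes had IRF8 at P9, against 7% of all protein-coding genes. For P14 there were 18 of 36 genes, against 32% of all genes. In adult microglia 28 of 36 genes were counted, against 50.6%, and in peritoneal macrophages 27 of 36, against 39.9%. Protein-coding genes of similar length, from 1185 to 93932 bp, gave nearly the same background as all genes, at 6.4%, 31.5%, 51.0% and 39.4%. Promoters were defined as 1 kb on each side of a transcription start. None of the 36 genes had a recurrent promoter region at P9, where the share of all genes was 1.32%. Promoter regions were found at 13 genes at P14 (10.9% of all genes), at 21 in adults (25.2%) and at 21 in macrophages (16.9%). No test was made on these counts, because the genes were not chosen blind to these data.

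Taken library by library, a peak lay at the promoters of 0, 1, 2 and 2 of the 36 genes in the P9 libraries. The P14 libraries had 10, 20 and 13 genes, the adult libraries 20, 28 and 12, and the macrophage libraries 31, 20 and 7. The P9 libraries were all below every later library, and P14, adult and macrophage libraries overlapped. As shares, the P9 libraries gave 3.47 ± 2.66% of the genes (SD, n = 4), P14 gave 39.8 ± 14.3%, adults 55.6 ± 22.2% and macrophages 53.7 ± 33.4% (SD, n = 3 each). Over all protein-coding genes the same libraries gave 1.44 ± 0.703%, 14 ± 7.80%, 26.3 ± 8.30% and 18.5 ± 8.04%. P14 and adult libraries overlapped both for the interferon-stimulated genes and for all genes. In each P14, adult and macrophage library the share was higher for the interferon-stimulated genes than for all genes.

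**Figure D1:**
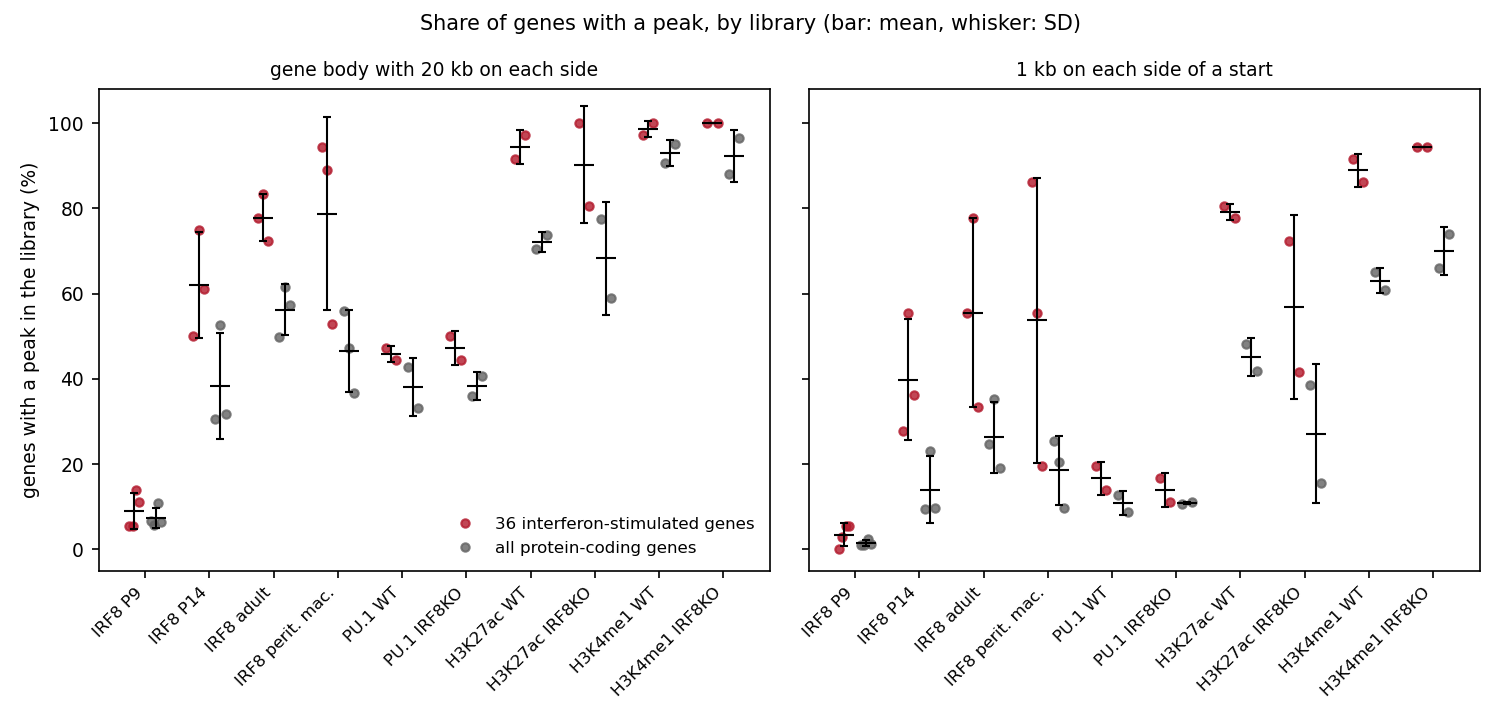
Share of genes with a peak in each library, in the gene body with 20 kb on each side (left) and in the promoter window (right), as percent of the 36 interferon-stimulated genes (red) and of all protein-coding genes (grey); points are libraries, bars the mean and whiskers the SD. At promoters the red points of the P14, adult and macrophage groups run from 19.4% to 86.1%, and those of P9 stay at or below 5.56%.

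Single libraries moved these counts. The macrophage count fell to 10 genes (4 at promoters) without replicate 1 and to 14 genes (6 at promoters) without replicate 2, where all genes gave 16.2% and 17.7% (5.28% and 5.98% at promoters). The adult promoter count was 12 without replicate 1 and 10 without replicate 2, beside 15.6% and 12.6% of all genes. The P14 promoter count was 8 without replicate 2, beside 5.05%, and the P9 count was 1 without replicate 1. With 1 of 3 libraries left out, both remaining libraries must have the peak. With IRF8 lists cut to their 1168 strongest regions the 4 groups had, in order of age and then macrophages, 2, 3, 4 and 2 genes, against 5.84%, 5.31%, 5.41% and 4.39% of all genes. The shares of all genes fell as well under this cut, so the drop was not particular to the interferon-stimulated genes. The part of list length in the counts by stage was not tested. In adult microglia and macrophages the labels place replicates 1 and 2 in batch 1 and replicate 3 in batch 2. Within batch 1 the promoter share was 55.6% and 77.8% in adult libraries and 86.1% and 55.6% in macrophage libraries, where all genes gave 24.6%, 35.3%, 25.3% and 20.5%. Within batch 2 it was 33.3% and 19.4%, from 1 library of each, where all genes gave 19% and 9.64%. The shares of all genes were also lower in batch 2.

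Peaks by gene and library showed which genes followed the general course. A peak in every adult library and in no P9 library was found for 17 of the 36 genes, against 26.9% of all genes, and at the promoter for 5 genes, Ifit3, Usp18, Ddx58, Parp14 and Bst2, against 9.89%. A peak in every P14 library and in no P9 library was found for 9 genes, against 10.1%. At promoters those were 4, Ifit3, Mx1, Ddx58 and Trex1, against 2.71%. No gene of the 36 lacked IRF8 peaks in all 13 libraries, where 18.6% of all genes did. At the promoter 3 genes had no peak in any IRF8 library, Oas3, Ifi44 and Ifi27l2a, where 52% of all genes had none.

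**Figure D2:**
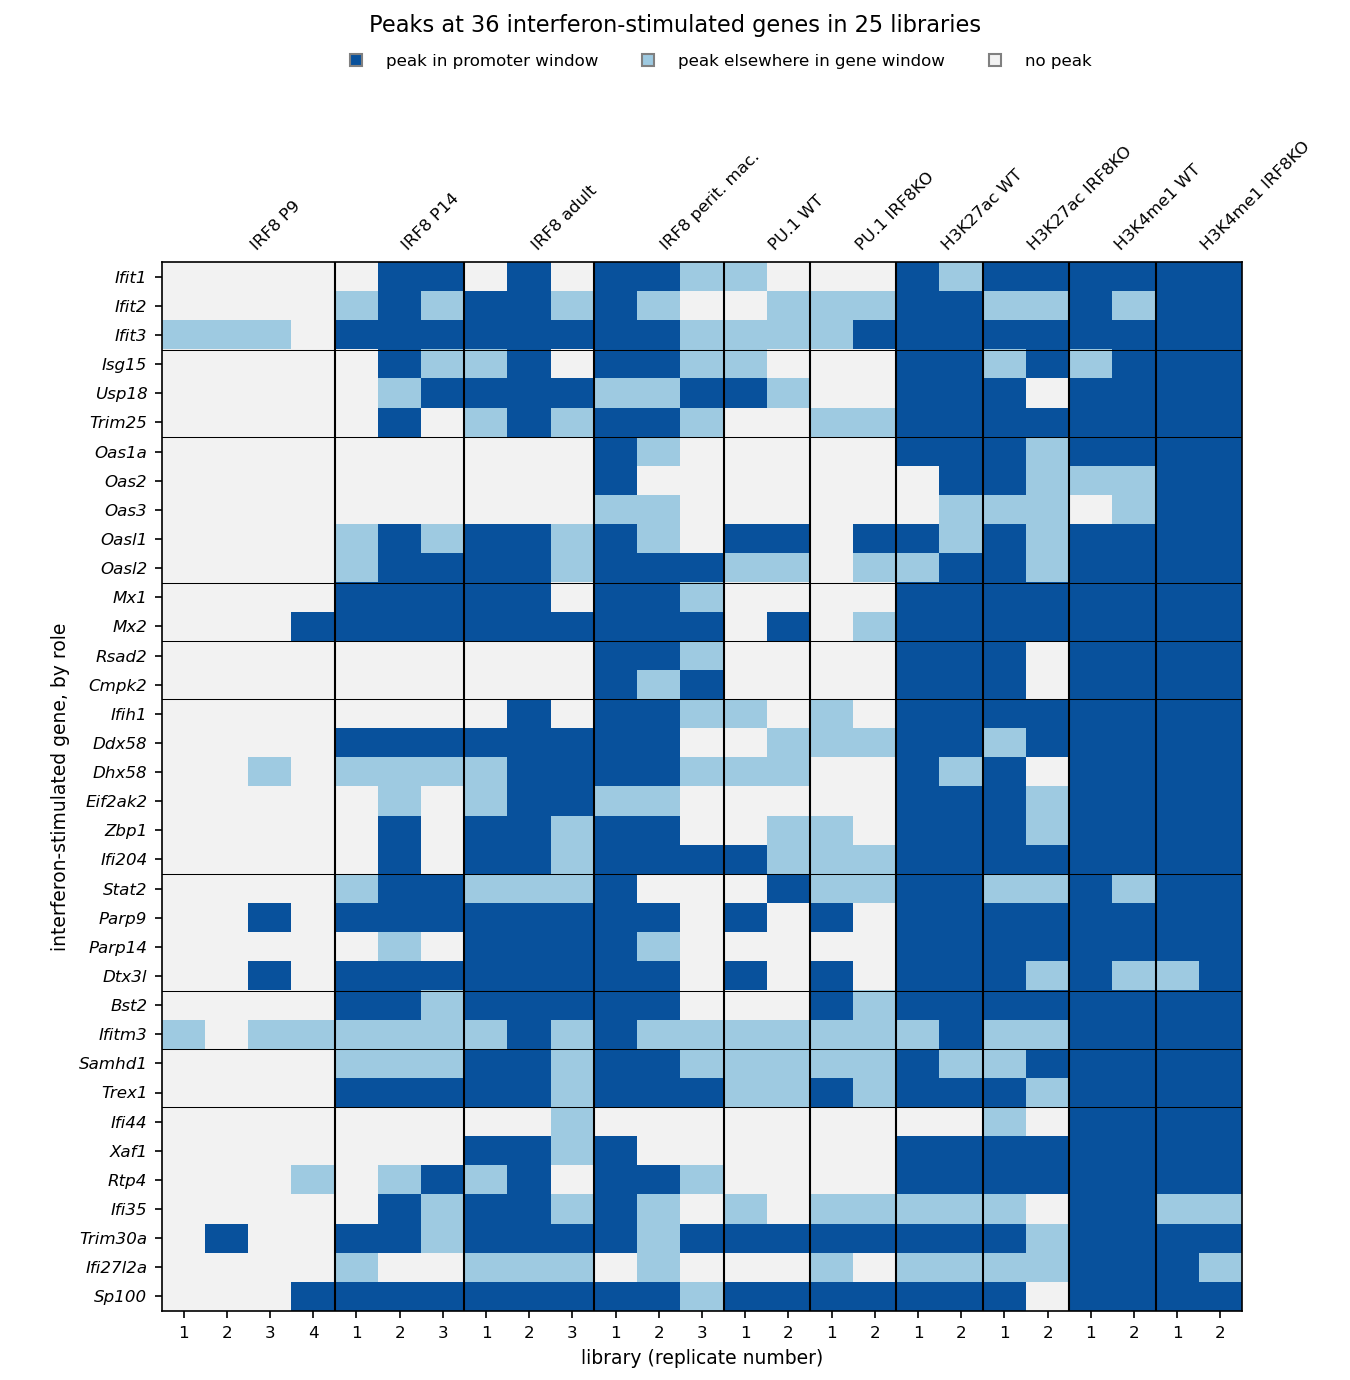
Peaks at each of the 36 genes (rows, in groups by role) in each of the 25 libraries (columns, replicate numbers below, group above); dark blue is a peak in the promoter window, light blue a peak elsewhere in the body or its 20 kb flanks, and grey no peak. The P9 columns are almost empty, Oas1a, Oas2, Oas3, Rsad2 and Cmpk2 show IRF8 only in macrophage columns, and H3K4me1 fills nearly every cell.

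The first role group binds or tags foreign nucleic acid. Among the IFIT proteins, which hold viral RNA, adult IRF8 regions lay at Ifit2 and Ifit3, and Ifit1 had a recurrent region only at P14 and in macrophages. At the Ifit3 promoter the authors' peak lists gave enrichment over the control of 10.8, 11.5 and 5.51-fold for the adult libraries, 4.16, 10.3 and 4.23-fold at P14, and 10.2 and 5.05-fold in macrophage replicates 1 and 2. No P9 library and no macrophage replicate 3 had a peak at that promoter. Such fold values are the authors' and describe a peak within its own library, since controls and depths differ between groups. Of the 2-5A synthetase family, which makes the signal that switches on RNA decay, only the relatives Oasl1 and Oasl2 had adult regions. Oas1a, Oas2 and Oas3, which share one gene cluster, had no IRF8 peak in any microglial library. Oas1a and Oas3 had peaks in macrophage replicates 1 and 2, and Oas2 in replicate 1.

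The ISG15 system attaches a small ubiquitin-like protein to targets. Usp18, the protease that removes ISG15 and restrains the interferon receptor, had IRF8 at its promoter in all 3 adult libraries at 10.1, 6.18 and 6.28-fold, in P14 replicate 3 at 4.68-fold and in macrophage replicate 3 at 3.48-fold. Isg15 itself had promoter peaks in adult replicate 2 (7.1-fold), P14 replicate 2 (4.34-fold) and macrophage replicates 1 and 2 (10.9 and 8.56-fold). Isg15 thus had a recurrent promoter region in macrophages and none in microglia of any age. Trim25, a ligase for RIG-I, had a recurrent promoter region in macrophages, and in adult microglia a recurrent region 25133 bp downstream of its start.

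Both Mx genes, of a family of GTPases that trap viral particles, had recurrent IRF8 promoter regions in P14 and adult microglia and in macrophages. At Mx2 every library of those 3 groups had a promoter peak, with 11.7, 6.50 and 12-fold enrichment at P14, 14.5, 8.18 and 4.72-fold in adults, and 7.05, 5.05 and 4.17-fold in macrophages, and P9 replicate 4 had one at 4.17-fold. Rsad2, which encodes the antiviral enzyme viperin, and its neighbour Cmpk2 were bound in macrophages alone. Neither gene had an IRF8 peak in any microglial library, and Rsad2 had promoter peaks in macrophage replicates 1 and 2 at 3.16 and 4.89-fold. These peaks did not overlap, so that Rsad2 had no recurrent region at its promoter. The shared window held 3 recurrent macrophage regions, 1 of them at the Cmpk2 promoter, with 3.26 and 5.69-fold enrichment in replicates 1 and 3.

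Among the nucleic acid sensors, Ddx58, which encodes the RNA sensor RIG-I, had a promoter peak in every P14 and adult library, and in macrophage replicates 1 and 2. Dhx58, a relative of RIG-I that modulates it, ranked second among the 21 genes with an adult promoter region. Its promoter enrichment was 11.6 and 12.3-fold in adult replicates 2 and 3 and 12.8 and 9.17-fold in macrophage replicates 1 and 2, and in adult replicate 1 the peak (10.7-fold) lay in the gene outside the promoter window. Zbp1, a sensor of Z-form nucleic acid, and Ifi204, a DNA sensor, had recurrent promoter regions in adults and macrophages. Ifih1, which encodes the RNA sensor MDA5, had one in macrophages only. Eif2ak2, which encodes the RNA-activated kinase PKR, had promoter peaks in adult replicates 2 and 3 that did not overlap.

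Parp9 and Dtx3l encode partner proteins that modify other proteins with ADP-ribose and ubiquitin, and their starts share a region. Its enrichment was 12.9, 13 and 5.86-fold in adults, 3.11, 9.36 and 3.38-fold at P14, 8.43 and 5.50-fold in macrophage replicates 1 and 2, and 7.02-fold in P9 replicate 3. Stat2, the transcription factor of the pathway, had a promoter region at P14 and none in adults or macrophages. Bst2, which encodes the virus-tethering protein tetherin, had the highest-ranking adult promoter region of the 36 genes. The Bst2 region had 14, 13.4 and 11.7-fold enrichment in adults, 9.63 and 10.1-fold in macrophage replicates 1 and 2, 5.83 and 11.6-fold in P14 replicates 1 and 2, and no peak in any P9 library. Its mean rank was the 93.4th percentile of the adult lists by the authors' −log10 p, and for the other 20 genes with such a region it ranged from 8.39 (Oasl2) to 91.9 (Dhx58).

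Of the genes that turn over nucleotides and DNA, Trex1, the DNA exonuclease, had promoter peaks in every P14 and macrophage library and in adult replicates 1 and 2. Samhd1, which degrades nucleotides, had 5 adult regions, 1 of them at its promoter. The other induced genes varied. Sp100, a nuclear body protein, had an adult region centred 418 bp from a start inside the gene. Its enrichment was 23.3, 23.2 and 5.83-fold in adults, 6.92, 11.9 and 7.49-fold at P14, 12.3 and 5.39-fold in macrophage replicates 1 and 2, and 4.47-fold in P9 replicate 4. Trim30a had 11.4, 9.53 and 9.97-fold enrichment at its promoter in adults, 4.03 and 5.09-fold in P14 replicates 1 and 2, 3.15 and 3.98-fold in macrophage replicates 1 and 3, and 4.53-fold in P9 replicate 2. Trim30a and Sp100 were thus among the few promoters with a peak in a single P9 library. Ifi35, an interferon-induced leucine zipper protein, had 11.2 and 9.47-fold enrichment at its promoter in adult replicates 1 and 2, 7.59-fold in P14 replicate 2 and 6.42-fold in macrophage replicate 1. The other IRF8 libraries had no peak at the Ifi35 promoter. Xaf1, Ifi35 and Ifi27l2a had recurrent adult regions and no recurrent macrophage region, and Ifi44 had a single peak, in adult replicate 3.

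Microglia and macrophages shared most of these genes and differed at several. Recurrent regions lay at 22 genes in both, against 33.8% of all genes, and at the promoters of 15 genes in both, against 12.6%. A gene counted in both could have its regions at different places, as Isg15, Usp18 and Rtp4 did. Adult microglia alone had them at 6 genes, Oasl1, Eif2ak2, Stat2, Xaf1, Ifi35 and Ifi27l2a, against 16.9%. Macrophages alone had them at 5, Ifit1, Oas1a, Rsad2, Cmpk2 and Ifih1, against 6.17%. For Oas1a, Rsad2 and Cmpk2 no adult library had any peak, a pattern seen at 1.77% of all genes, and at the promoter it held for Cmpk2 only, against 1.71%. At promoters the macrophage-only genes were Ifit1, Isg15, Trim25, Cmpk2, Ifih1 and Rtp4, against 4.3%, and the adult-only genes Ifit2, Usp18, Oasl1, Samhd1, Xaf1 and Ifi35, against 12.7%. These lists depend on single libraries of both cell types. Adult promoters fell to 12 and 10 genes without adult replicate 1 or 2 (all genes 15.6% and 12.6%), and macrophage promoters to 4 and 6 without macrophage replicate 1 or 2 (5.28% and 5.98%).

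The adult IRF8 regions at these genes numbered 52. Of these, 20 lay at a promoter, 6 elsewhere in a gene body and 26 outside the body, and 26 were present in every adult library. Of all 16935 adult regions, near genes or not, 5162 lay at the promoter of a protein-coding gene. For 18 of the 52 the nearest transcription start belonged to a gene outside the 36, so that a window with 20 kb flanks also counts neighbours. They overlapped the macrophage set in 51.9% of cases (39.5% of all adult regions), WT H3K27ac in 73.1% (81.8%) and WT H3K4me1 in 92.3% (91.3%). WT PU.1 overlapped 7 of the 52, or 13.5%, and 27% of all adult IRF8 regions, and IRF8KO PU.1 overlapped 10, or 19.2%, and 20.8% of all. At promoters the PU.1 overlap was 4 of 20 regions (20%) and 22.3% over all adult promoter regions. Peak rank within the lists was 50.6 (median percentile) for the 52 regions and 58.9 for all adult regions, and for the 48 macrophage regions it was 74.1 against 61.7.

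The interferon-response-like motif was more frequent at these regions than over all regions. Within 100 bp of the region centre GAAANNGAAA occurred, on either strand, in 11 of 48 macrophage regions (22.9%), 5 of 52 in adults (9.62%), 7 of 26 at P14 (26.9%) and all 3 at P9. All recurrent regions held it in 5.86%, 4.2%, 4.11% and 4.66% of cases in the same order. The P14 and P9 counts include both regions of the near-identical pair by Ifit3, which is uncertain as separate sites. The composite motif GGAANNGAAA, which joins an ETS and an IRF core, occurred in 1 macrophage region (2.08%), 3 in adults (5.77%) and none at P14 or P9, against 6.39%, 6.28%, 8.33% and 14.9%. The adult value for the interferon-response-like motif depended on the window. It was 25% within 250 bp of the centre (9.26% of all regions), 3.85% within 100 bp of the strongest summit (2.93%), and 26.9% without adult replicate 2 (4.23%). Library by library, the share of regions at these genes with that motif was 15.3 ± 5.71% for adults, 21.4 ± 4.79% for P14 and 13.6 ± 6.29% for macrophages (SD, n = 3 each). All regions of the same libraries gave 3.89 ± 0.442%, 3.70 ± 0.121% and 4.45 ± 1.26%, and all 9 libraries were higher at the interferon-stimulated genes. The overlap with WT PU.1 regions was lower at these genes in all 9 libraries, at 11.8 ± 2.73%, 17.5 ± 4.84% and 7.96 ± 0.780% against 19.9 ± 5.69%, 33.6 ± 9.16% and 14.7 ± 3.13% (SD, n = 3 each). The P9 libraries had 2 to 4 regions each at these genes, with the motif in 100%, 50%, 0% and 0%. PU.1 was mapped in adult microglia only, so that the P14 and macrophage values set it beside another stage or tissue.

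**Figure D3:**
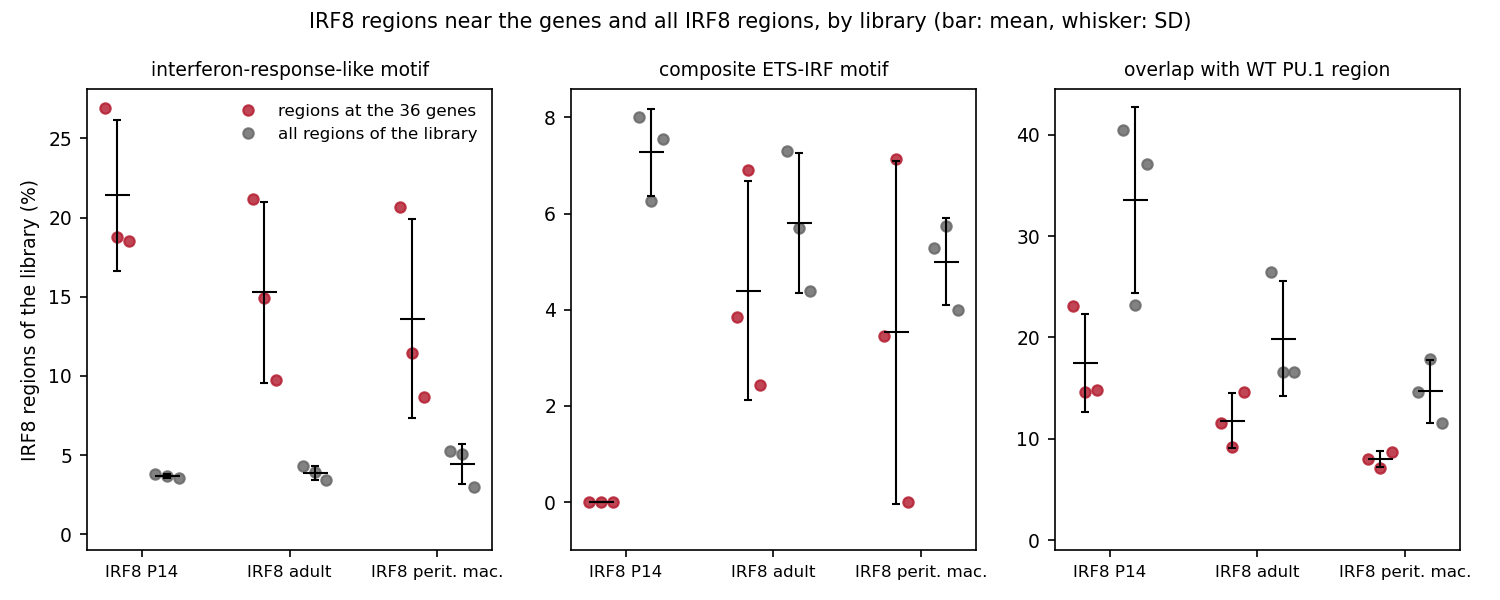
Share of IRF8 regions in each library (points) that hold the interferon-response-like motif (left) or the composite ETS-IRF motif (middle) within 100 bp of the centre, or overlap a WT PU.1 region (right), in percent, for regions at the 36 genes (red) and all regions (grey) of the P14, adult and macrophage libraries; bars are means and whiskers SDs, n = 3. Red points lie above grey points for the first motif in each group, and below them for PU.1 when compared within a library.

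Promoter sequence was then set beside binding. The RefSeq promoter table, which holds 250 bases before and 50 bases after each start, matched 25 of the 36 genes. The 11 genes with no entry are Zbp1, Mx2, Usp18, Oas2, Ifi27l2a, Parp9, Mx1, Parp14, Ifi204, Dhx58 and Rtp4. The interferon-response-like motif occurred in 13 of the 25 promoters (52%), against 4.02% of 16522 protein-coding genes. The composite motif occurred in 5 (20%, against 3.05%) and the ETS core GGAAGT in 10 (40%, against 28.3%). Only at Stat2 did a site of the first motif overlap one of the second. Isg15 held 3 overlapping copies of the interferon-response-like motif and Bst2, Oas1a, Ifit1, Ifit3 and Ifitm3 held 2 each, and the printed stretches show those of Isg15, Bst2, Ifit1 and Ifit3.

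A recurrent adult IRF8 region covered the promoter window of 12 of the 25 genes, against 23.8% of all genes. It covered 4 of the 13 windows with the interferon-response-like motif, Ifit3, Ddx58, Bst2 and Trim30a, and 8 of the 12 without it, such as Ifi35, Trex1, Samhd1 and Xaf1. Over all genes 24.1% of promoters with the motif and 23.7% of those without it had an adult region, so that the motif did not separate bound from unbound promoters there. At P14 the covered genes were 8 of 25 (9.3% of all genes), with 6 of 13 among those with the motif and 2 of 12 among those without. In macrophages they were 11 of 25 (14.9%), with 7 of 13 and 4 of 12. Over all genes the P14 shares were 12.3% with and 9.13% without the motif, and the macrophage shares 17.7% and 14.7%. No P9 region covered any of the 25 windows, where 0.841% of all genes had one. Isg15, Ifit1 and Ifih1 thus had the motif with a recurrent region in macrophages and not in adult microglia, and Oas1a, Oas3, Rsad2, Eif2ak2 and Ifitm3 had the motif with no recurrent region over it in any group. Among adult libraries, replicate 2 alone had a promoter peak at Isg15, Ifit1 and Ifih1. Stat2 had both motifs and a region at P14 only.

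**Figure D4:**
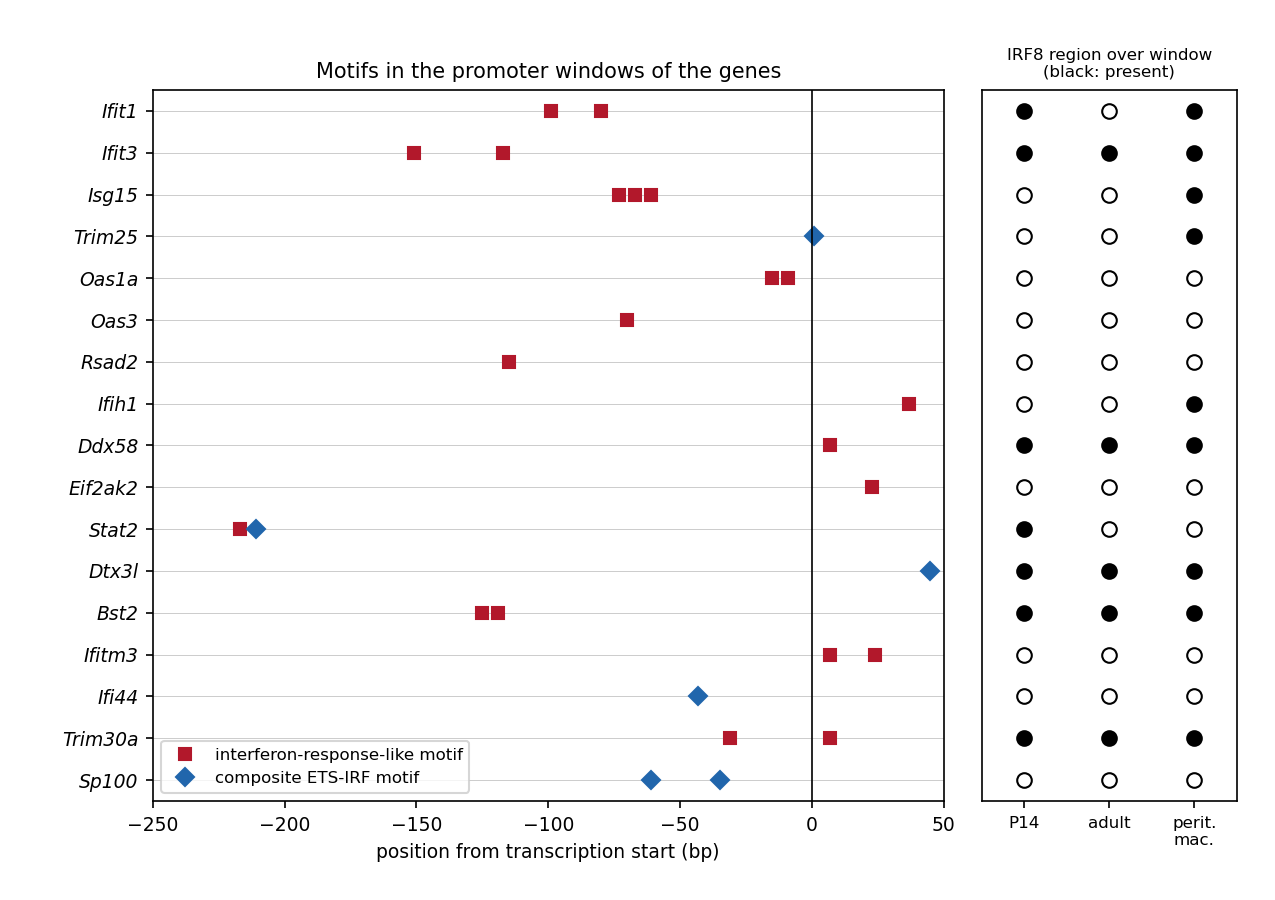
Left, centres of interferon-response-like (red squares) and composite ETS-IRF (blue diamonds) motifs in bp from the transcription start, for the 17 of 25 genes with at least 1 of them. Right, black circles mark a recurrent IRF8 region over the promoter window at P14, in adults or in macrophages, which is present in all 3 groups for Ifit3, Ddx58, Dtx3l, Bst2 and Trim30a.

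The distance from the highest point of a peak to the centre of the nearest motif varied between genes and libraries. The highest point of the Bst2 peak stood 88, 90 and 71 bp upstream of the centre of the nearest motif in the adult libraries, 40 and 86 bp upstream in P14 replicates 1 and 2, and 105 and 116 bp upstream in macrophage replicates 1 and 2. At Ifit3 the distances were 99, 124 and 113 bp upstream in adults and 135 and 144 bp upstream in the same macrophage libraries. At Trim30a the adult peaks fell on either side, 172 and 113 bp downstream and 247 bp upstream, and the peak of macrophage replicate 1 stood 400 bp downstream. At Ifit1 the distances were 136 bp downstream and 293 bp upstream in macrophage replicates 1 and 2. At Rsad2 the macrophage peaks stood 16 bp upstream and 243 bp downstream of the motif printed above.

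PU.1 in adult WT microglia had recurrent regions at 8 of the 36 genes, against 22.4% of all genes, and at the promoters of 3, Oasl1, Trim30a and Sp100, against 5.68%. Each of the 8 genes, Oasl1, Oasl2, Dhx58, Ifitm3, Samhd1, Trex1, Trim30a and Sp100, also had an adult IRF8 region, a combination found at 21.6% of all genes, and at 5.27% of all promoters. At the Sp100 promoter PU.1 was enriched 23.2 and 13.3-fold in WT and 15.7 and 17.8-fold in IRF8KO microglia, and at the Trim30a promoter 10.1 and 6.50-fold in WT and 13.2 and 9.33-fold in IRF8KO. Both promoters thus had PU.1 in every library of both genotypes. In IRF8KO microglia 9 of 36 genes had a recurrent PU.1 region, against 20.9%, and 2 had one at the promoter, against 5.8%. Of the 8 WT regions at these genes 1 had no peak in either IRF8KO library (12.5%), against 25.1% of all WT PU.1 regions. It lay in an exon of Dhx58 (chr11:100702759-100702998) and overlapped an adult IRF8 region. Conversely, 3 of 12 IRF8KO regions had no WT peak (25%), against 16.5%, and these lay in the windows of Ifi204, Stat2 and Trim25. Replicate 1 of both genotypes was called with one control and cutoff and replicate 2 of both with another. Promoter peaks were found at 7 genes in WT and 6 in IRF8KO for replicate 1 (all genes 12.8% and 10.7%), and at 5 and 4 for replicate 2 (all genes 8.8% and 11.1%). With so few regions, single libraries decided the shares of lost regions. The loss was 57.1% without WT replicate 2, 50% without WT replicate 1 and 25% without IRF8KO replicate 2, beside 58.6%, 47.7% and 35.6% of all regions. The IRF8KO-only share was 47.6% without IRF8KO replicate 1, 50% without IRF8KO replicate 2 and 50% without WT replicate 1, beside 58.2%, 47.3% and 31.0%. With a single WT library, 17 genes (replicate 1) or 16 genes (replicate 2) had a PU.1 region, against 42.8% and 33.2% of all genes.

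H3K27ac, a mark of active promoters and enhancers, was present at most of these genes in WT microglia. Recurrent regions lay at 30 of 36 genes, against 61.7% of all genes, and at the promoters of 24, against 37.6%. In IRF8KO microglia they lay at 20 genes, against 30.1%, and at the promoters of 11, against 10.8%. The promoters with H3K27ac in both genotypes were those of Ifit3, Oasl1, Mx1, Mx2, Ifih1, Ifi204, Parp14, Bst2, Xaf1 and Rtp4, which are 10 of 36 genes against 10.1%. In the gene window 18 genes had it in both (29.1%), 12 in WT only (32.6%) and 4 in neither (37.3%), Oas2, Dhx58, Ifi44 and Ifi35. At 14 promoters, against 27.5%, the region recurred in WT only, among them Isg15, Usp18, Ddx58, Zbp1, Stat2, Parp9 and Sp100, at 1, Ifit1, in IRF8KO only (0.702%), and 11 had it in neither (61.7%). Adult IRF8 and WT H3K27ac were found together at 26 genes (47.2%) and at the promoters of 17 (21.5%). The part of the shallow library in this fall was not tested. Promoter peaks were found at 29 and 28 of the 36 genes in the WT libraries, at 26 in IRF8KO replicate 1 and at 15 in IRF8KO replicate 2, while all genes went from 48.2% and 41.9% to 38.6% and 15.6%. The WT mean was 79.2 ± 1.96% of the 36 genes and the IRF8KO mean 56.9 ± 21.6% (SD, n = 2 each). That difference is close to the IRF8KO SD.

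Of the 72 WT H3K27ac regions at these genes, 15 had no peak in either IRF8KO library (20.8%), against 34% of all WT regions. Among the 38 that overlapped an adult IRF8 region 3 were lost, and over all IRF8-overlapping H3K27ac regions 21% were lost. The regions at the 36 genes ranked higher in the WT lists, at a median percentile of 74.3 against 66.9, and the comparison was not made at matched rank. At promoters 2 of 25 were lost (8%), against 21.7%. These were the Ifit2 promoter (chr19:34549884-34551088, 6.15 and 5.56-fold in WT), which overlapped an adult IRF8 region, and the Stat2 promoter (chr10:128270016-128270911, 3.46 and 2.82-fold), which did not. No IRF8KO library had an H3K27ac peak at either promoter. Lost regions away from promoters included 2 upstream of Parp9 (chr16:35918400-35919485 and chr16:35921216-35923048), 2 at Rtp4, and 1 each at Sp100, Usp18, Ifih1 and Ddx58. Counting against IRF8KO replicate 2 alone raised the loss to 52.8%, and counting absence from the recurrent IRF8KO regions raised it to 66.7%. All regions rose to 72.9% and 78.4% under the same counts. With lists of equal length the loss was 22.7%, beside 35.4% of all regions. Without WT replicate 1 the loss was 48.9% (all regions 59.5%), and without IRF8KO replicate 2 it was 31.9% (37.3%). Without WT replicate 2 the loss was 37.2% (54.5%).

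For H3K27ac 4 of 29 IRF8KO regions had no WT peak (13.8%), against 10.9%, and none was at a promoter. The share was 47.2% without IRF8KO replicate 2, 27.4% without IRF8KO replicate 1 and 20.7% without WT replicate 2, beside 55.9%, 55.5% and 14.1% of all regions. Among these 4 regions, 2 lay in the window of Oas3 (chr5:120779765-120780999 and chr5:120787538-120788454), both upstream of its start, the second overlapping an exon of Oas1e. Oas3 and Ifit1 were the genes with recurrent H3K27ac in IRF8KO and not in WT, 2 of 36 against 0.994% of all genes. Both WT libraries still had a peak in the Ifit1 window, at different places, and at the Ifit1 promoter enrichment was 4.93-fold in WT replicate 1 and 5.37 and 4.31-fold in IRF8KO. Peaks in the Oas3 window were enriched 4.02 and 7.19-fold in IRF8KO and 4.25-fold in WT replicate 2. In WT replicate 1 the window had no H3K27ac peak.

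H3K4me1, a mark of primed and active enhancers, covered nearly all of these genes in both genotypes. Recurrent regions lay at 35 of 36 genes in WT, against 79.6%, and at all 36 in IRF8KO, against 82.1%. At promoters the counts were 32 (55.5%) and 34 (63%). Of 100 WT regions 7 were lost (7%), against 13%, and of 114 IRF8KO regions 16 had no WT peak (14%), against 23.8%. Of the lost regions 1 lay at a promoter (1 of 32 promoter regions, 3.12%, against 1.98%), that of Ifi35 (chr11:101447918-101449602, 1.89 and 1.81-fold in WT), over an adult IRF8 region, and the Ifi35 promoter had no H3K27ac peak in any library. IRF8KO-only regions made up 3 of 38 at promoters (7.89%, against 7.28%) and lay at those of Oas2 (chr5:120745690-120750357), Oas3 (chr5:120774469-120781654) and Rtp4 (chr16:23602590-23605068). Oas2 and Oas3 had no IRF8 peak in any microglial library. IRF8KO H3K4me1 replicate 2 had the longest list of the mark, 189351 regions against 104818 to 129859 in the others. The loss was 11% and 14% without IRF8KO replicate 1 or 2 and 14.3% and 16.1% without WT replicate 1 or 2, beside 19%, 24.7%, 44.1% and 33% of all regions. The IRF8KO-only share was 38.1% and 31.1% without IRF8KO replicate 1 or 2, beside 56.0% and 41.7%.

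**Figure D5:**
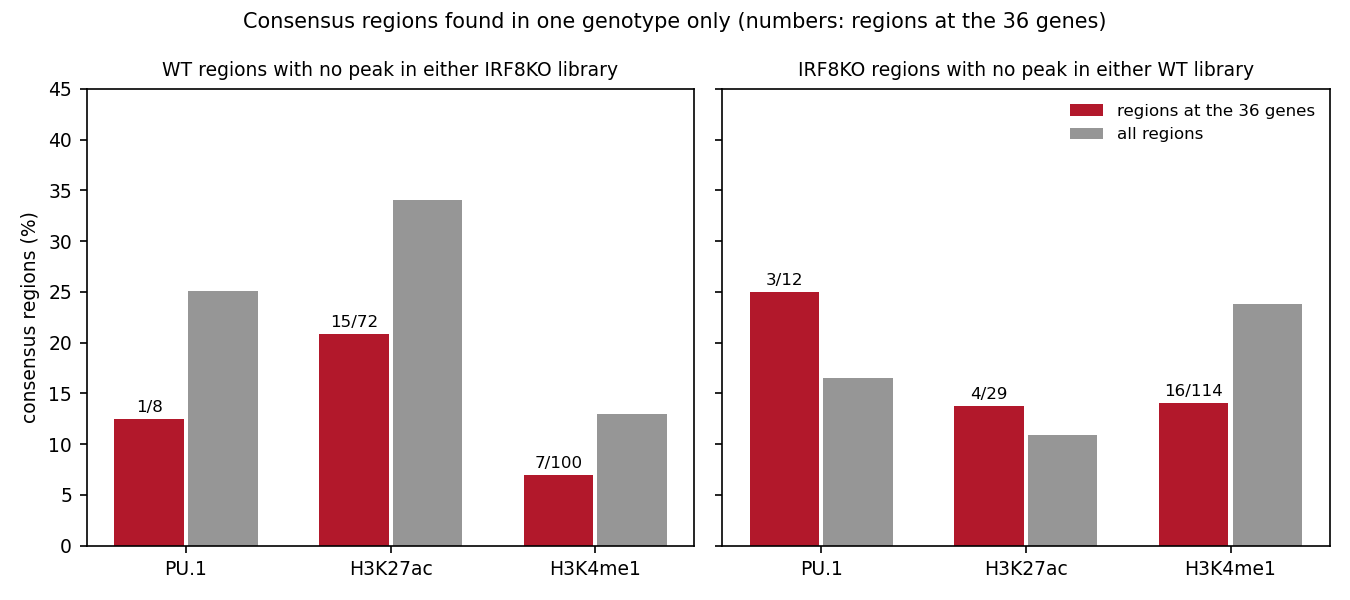
Share of recurrent regions with no peak in either library of the other genotype, in percent, for PU.1, H3K27ac and H3K4me1, at the 36 genes (red, with the number of regions above the bar) and over all regions (grey). Left, WT regions absent from IRF8KO, where the red bars are lower for each mark. Right, IRF8KO regions absent from WT, where the red bar is lower for H3K4me1 only.

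The other genes of the pathway were described from a list of 25 signalling genes, among them the receptor chains, the kinases, other IRF factors, and sensors and adaptors upstream of interferon. In order of age and then macrophages, recurrent IRF8 regions lay at 7, 21, 24 and 22 of these, and at the promoters of 2, 9, 19 and 11. The shares of all genes were 7%, 32%, 50.6% and 39.9% for gene windows and 1.32%, 10.9%, 25.2% and 16.9% for promoters. A list of 15 interferon-inducible GTPases had 5, 12, 13 and 15 genes with a region, and 2, 8, 10 and 14 promoters. For 15 homeostatic microglia genes the counts were 7, 14, 15 and 10 genes, and 1, 6, 13 and 5 promoters. PU.1 regions in WT lay at 14 of the 15 homeostatic genes (93.3%), 10 of the 15 GTPases (66.7%), 17 of the 25 signalling genes (68%) and 8 of the 36 interferon-stimulated genes (22.2%), where the share of all genes was 22.4%. These differences between lists were not tested.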

How the data were processed

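Peaks were analysed from 25 libraries of sorted mouse cells, 13 for IRF8, 4 for PU.1, 4 for H3K27ac and 4 for H3K4me1. Reads were aligned to mm10 with Bowtie2 and peaks called with MACS2, per the submitters' processing notes; the headers give MACS 2.2.7.1 for IRF8 and PU.1 and 2.2.6 for the histone marks, per library against IgG. Cutoffs were q 0.01, except q 0.05 with another control for PU.1 replicate 2 of both genotypes, and p 0.01 in broad mode for H3K4me1. The deposited pileup is the fragment coverage at the summit (a mean for broad regions), per the file headers. The deposited fold is the pileup over the control, and the deposited −log10 p and −log10 q (narrow lists only) are MACS scores per peak, as the authors' files give them. These values rank peaks within a list only. The labels say that 4 of 7 P9 libraries and 2 of 3 IRF8KO H3K27ac libraries were provided.

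Replicate numbers follow the sample titles, from which some deposited file names differ. Each chromosome, start and end was counted once. Peaks of a group were merged, and a region was kept where 2 or more libraries had a peak. A region counted for a gene when it overlapped, by 1 bp, its GENCODE body with 20 kb flanks, or 1 kb on each side of a transcript start. A lost region had no peak in either library of the other genotype. Motifs were searched on both strands. Python 3.11.15, pandas 2.3.3, numpy 2.4.6, pysam 0.24.0 and matplotlib 3.10.9 were used, and the counting was tested on simulated data. No hypothesis test was made: genes, lists and windows were chosen with earlier results of these data known. Values per library are given for the 8 genes with the highest mean percentile of an adult IRF8 promoter region, and for genes with a promoter region lost in IRF8KO. Genes with P9 regions, or with regions in 1 of adult microglia and macrophages, are named; other values were chosen after they had been seen. Alternatives were narrower windows, stricter peaks, lists of equal length, recurrence in every library and leaving out each library. A gene of the signalling list is not reported here.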

Additional observations from a re-analysis of the deposited data

How the results depend on the processing

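Of 149 alternative values, 94 stayed near the count or within the 95% binomial interval of the share, which is wide for few regions, and 55 did not. For gene windows, P9 gave 0 genes with 10 kb flanks, with −log10 p of at least 10, or with a peak required in every library, against 5.35%, 3.47% and 1.99% of all genes. With −log10 p of at least 10, P14 gave 8 genes and 4 promoters (all genes 18.2% and 4.7%), adults 11 promoters (12.8%), WT PU.1 4 genes (10.9%) and WT H3K4me1 0 genes (0.214%). With a peak in every library, P14 gave 8 promoters (all genes 5.22%), adults 12 promoters (13%), and macrophages 10 genes and 4 promoters (14.8% and 4.75%). With lists of equal length, P14 gave 3 genes and 2 promoters (all genes 5.31% and 1.03%), adults 4 and 1 (5.41% and 1.14%), macrophages 2 and 0 (4.39% and 0.77%). Loss of H3K27ac was 66.7% against recurrent IRF8KO regions, 8% at promoters and 40% for the stricter peaks (all regions 78.4%, 21.7% and 50.7%), and loss of PU.1 at promoters 0% (14.6%). Loss of H3K4me1 was 18% against recurrent IRF8KO regions (30.3%). IRF8KO-only shares at promoters were 0% for PU.1, 0% for H3K27ac and 7.89% for H3K4me1 (12.4%, 2.79% and 7.28%), for stricter peaks 0% for H3K27ac (8.03%) and 100% (2 of 2) for H3K4me1 (59.4%), and against recurrent WT regions 24.6% for H3K4me1 (44.4%). The interferon-response-like motif was in 25% of adult regions within 250 bp (9.26%), and the composite motif in 0% at the strongest summit and 0% at promoters (2.87% and 2.93%).

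Leaving out 1 library gave 1 to 2 genes at P9, 8 to 11 promoters at P14, 10 to 21 promoters in adults, 10 to 26 genes and 4 to 19 promoters in macrophages, and 16 to 17 genes for WT PU.1. All genes gave 4.75% to 6.02%, 5.05% to 8.05%, 12.6% to 22.2%, 16.2% to 37.1%, 5.28% to 14.6% and 33.2% to 42.8% in that order. Groups of 2 libraries were then counted from 1, so that any peak of the remaining library made a region. H3K27ac loss ranged from 31.9% to 52.8%, PU.1 loss from 12.5% to 57.1% and H3K4me1 loss from 11% to 16.1% (all regions 37.3% to 72.9%, 35.6% to 58.6% and 19% to 44.1%). The IRF8KO-only shares ranged from 17.2% to 47.2%, from 25% to 50% and from 19.3% to 38.1% in that order (14.1% to 55.9%, 24.3% to 58.2% and 32.6% to 56%). Motif shares were 10.6% to 26.9% for the interferon-response-like motif (all regions 4.15% to 4.24%) and 0% to 6.38% for the composite motif (6.43% to 8.1%). No paired analysis was possible because the results are counts of regions that come from no test, which leaves no fit to block. The design itself does hold pairs. PU.1 libraries of the same replicate number share a control and cutoff across genotypes, and adult and macrophage IRF8 libraries share batches. Values within these pairs stand in the report and were not tested. Short lists (P9, P14 replicates 1 and 3, macrophage replicate 3) and the low depth of IRF8KO H3K27ac replicate 2 limit what a missing peak shows, and it does not show that the protein was absent.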
